A study of Arabidopsis thaliana with 36 samples.

Results

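Shoots of Arabidopsis thaliana seedlings exposed for 3 h to SHAM (salicylhydroxamic acid) dissolved in a PEG (polyethylene glycol) solution were compared with shoots of seedlings kept in water. The treated libraries are those labelled PS3-S and the water libraries those labelled PS0-S, with 3 libraries in each, so 6 of the 36 libraries of the series enter the comparison itself. All seedlings were of the Columbia-0 ecotype, 7 d old, grown at 21 °C with 16 h of light and 8 h of darkness. Each library came from a pool of 30 to 50 seedlings, whose shoots and roots were separated after the treatment. The treated seedlings were in 30% PEG with 1 mM SHAM, although the treatment protocol also names 0.1 mM, and the PEG solution had an osmotic pressure of -2.0 MPa. The water shoots are labelled as 1 h in water, while the protocol lists the exposure series as starting at 0 h. No group had PEG alone, SHAM alone or 3 h of water among the shoot libraries used here. What PEG, SHAM and time in solution each contribute therefore cannot be told apart. Shoots at 1 h and 2 h of the same treatment, 2 further sets of water shoots labelled S0 and PH0, and the roots of the same PEG with SHAM seedlings and their water controls serve as points of comparison.

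PEG of high molecular weight lowers the water potential outside the tissue without entering cells, and plants answer with abscisic acid (ABA). In the core pathway, ABA bound by a PYR/PYL receptor blocks clade A PP2C phosphatases, which frees SnRK2 kinases to phosphorylate ABF transcription factors that switch on protective genes, the phosphatase genes among them. SHAM is a chemical inhibitor of the mitochondrial alternative oxidase that also inhibits lipoxygenases and other oxidases.

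Expression was measured by MARS-seq, which counts reads at the 3′ ends of transcripts, and every level below is a normalized read count: the reads of a gene divided by a scaling factor of its library. The PS3-S libraries held 1075326, 2092302 and 1397528 gene-assigned reads and the PS0-S libraries 512596, 1141633 and 2651478. PS0-S replicate 3 differed most from the other water replicates, with a chi-square per degree of freedom of 16.3 and 22.1 against its partners and 4.33 between those. The tissue label matched its markers: the summed level of the light-harvesting genes was 90688 to 133688 in the PS3-S libraries and 137195 to 230637 in the PS0-S libraries, against 908 to 1711 in the roots. Summed root markers reached 32.9 to 59.4 in the PS3-S shoots and 66.4 to 81.1 in the PS0-S shoots, against 1232 to 3245 in the roots, and 7 of 15 root markers in the table were at 0 in all PS3-S libraries. In whole shoots, fewer cells of a type and less RNA per cell cannot be told apart. The labels call the replicates biological but name no separate growth batches, so the p-values below measure the spread between pools of seedlings.

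After 3 h, ABA phosphatases, dehydrins and other protective proteins, drought-related transcription factors and most aquaporins stood higher than in water, while a subset of ABA receptors, light-harvesting and photosystem genes, cell wall loosening genes and nitrate genes stood lower. By limma on log2(level + 1), 1468 of 10459 genes tested, or 14.0%, passed a Benjamini-Hochberg adjusted p of 0.05. Of these, 697 rose (6.66% of the genes tested) and 771 fell (7.37%). The median of all genes was -0.08 on the log2 scale. The risers had a median log2 change of 2.01, and 349 of them exceeded 2, while the fallers had a median of -1.31, and 181 of them lay below -2. For 1418 of the 1468 the 3 treated and the 3 water values did not overlap, which was the case for 32.5% of all genes tested. Of the 697 risers, 493 lay above all 9 water shoot libraries, where 7.61% of all genes lay, and 481 of the 771 fallers lay below all 9, where 7.07% of all genes lay. Rescaling the libraries by TMM gave 778 risers and 556 fallers in place of 697 and 771, and the total was 931 without PS3-S replicate 3. None of the 63 chloroplast-encoded genes tested rose and 2 fell.

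**Figure D1:**
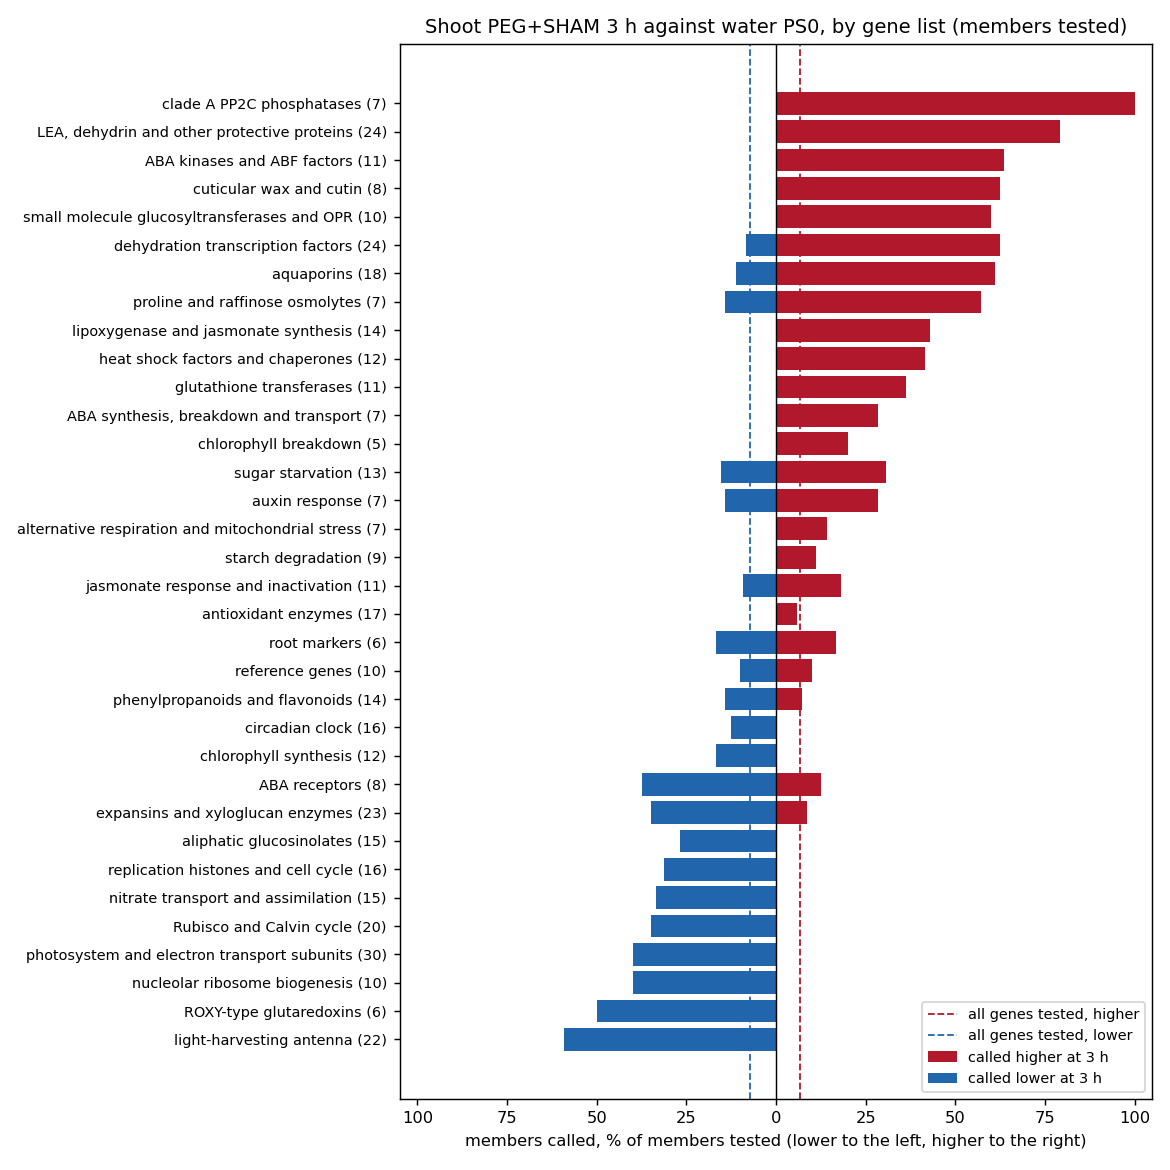
Share of the tested members of each gene list that rose (bars to the right) or fell (bars to the left) in shoots at 3 h of PEG with SHAM relative to PS0 water, in percent, for lists with 5 or more tested members; dashed lines give the share over all genes tested. All 7 tested PP2C phosphatases rose, and 13 of 22 light-harvesting genes fell. Lists and members were chosen with earlier results of these data known, so the shares are not independent of that choice.

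The genes that changed most had next to no reads in water shoots. AT4G28140, annotated as an integrase-type DNA-binding protein, stood at 834.7, 609.4 and 1039.8 in the 3 h shoots, against 0, 1.5 and 1.1 in the water shoots. Its recovered reads were 711 times as frequent at 3 h (95% interval 243 to 3449, counting error only), with a log2 change of 8.86 ± 0.43 (limma SE, n = 3 each) and a limma adjusted p of 6.02e-11. The SE of each shoot change rests on a spread estimated over all 18 shoot libraries, not the 6 compared ones alone. For differences between shoot and root changes it rests on all 36 libraries. Leaving out shoot 2 h replicate 2 and PH0 replicate 1, neither of them compared, gave 2363 calls in place of 1468. TSPO, an ABA-induced membrane protein of the early secretory pathway, stood at 490.1, 275.3 and 481.2 in treated shoots, against 0, 0 and 1.7 in water. Its log2 change was 8.18 ± 0.61. ERF53, an ethylene response factor type transcription factor, stood at 717.3, 697.3 and 1004.9 in treated shoots, against 3.5, 3.1 and 2.2 in water. In all 3 genes every treated library lay far above every water library. Genes named among the largest rises had to show no overlap, so the separation itself was a condition for naming them. The ubiquitin ligase gene PUB19, described in Arabidopsis as a negative regulator of ABA and drought responses, stood at 1508.9, 1087 and 1619.2 in treated shoots, against 10.6, 9.2 and 10.6 in water (log2 change 6.96 ± 0.51). AT3G03341, annotated as a cold-regulated protein, had 1434.7, 1014 and 1439.2 in treated shoots, against 10.6, 9.2 and 4.5 in water. The log2 values of genes this close to 0 in water depend on the pseudocount of 1.

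Genes of the ABA pathway changed at the steps of synthesis, reception, dephosphorylation and transcription, in different directions. For ABA supply, 2 of 7 tested genes of synthesis, breakdown and transport rose and none fell. NCED3, the drought-induced enzyme of the committed step of ABA synthesis, had 104, 100.2 and 108 in treated shoots, against 0, 3.1 and 2.2 in water (log2 change 5.48 ± 0.62, limma adjusted p = 3.23e-06). ABCG25, an ABA exporter, had 41.6, 45.2 and 50.2 in treated shoots, against 10.6, 13.8 and 12.9 in water, and its limma adjusted p of 0.0143 became 0.0532 to 0.0970 without PS3-S replicate 3, without PS0-S replicate 1 or against PH0 water less its shallowest library. Without either of those 2 replicates 1 of 7 was called. The log2 changes of ABA1, AAO3 and the ABA-degrading hydroxylase CYP707A1 were -0.06, 1.12 and -0.03, with no call.

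Of 8 tested ABA receptors, 3 fell and 1 rose. PYL6 stood at 17.8, 16.2 and 28.4 in treated shoots, against 564.1, 480.7 and 353.5 in water (log2 change -4.44 ± 0.29, limma adjusted p = 2e-09). PYL4 stood at 23.8, 31 and 31.6 in treated shoots, against 356.1, 310.8 and 664.9 in water (-3.83 ± 0.24), and PYL5 at 314.9, 190 and 304.4, against 1145.9, 891 and 583.7 in water (-1.67 ± 0.31). These 3 belong to the monomeric receptors, and their treated and water values did not overlap. PYL9, another monomeric receptor, had 181.2, 131.2 and 185.5 in treated shoots, against 42.3, 53.6 and 29.1 in water (1.99 ± 0.28). The summed receptor level was 415 to 653 in treated shoots, against 1802 to 2221 in water. PYR1, PYL1, PYL2 and PYL8 had log2 changes between -1.75 and 1.01 and no call.

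The phosphatases that the receptors block all rose: 7 of 7 tested clade A PP2C genes, with a median log2 change of 4.58 beside -0.08 over all genes. ABI1 had 2925.8, 2887.4 and 3145.7 in treated shoots, against 282.1, 232.7 and 275 in water (3.5 ± 0.20, limma adjusted p = 2.59e-10). PP2CA had 1151, 733.5 and 1069.3 in treated shoots, against 45.8, 44.4 and 30.2 in water (4.58 ± 0.31). HAI1 had 285.2, 218.4 and 261.9 in treated shoots, against 7.1, 3.1 and 1.7 in water (5.83 ± 0.58). In each of these the lowest treated library was more than the sum of the 3 water libraries. HAI2 changed by 5.83 ± 0.53, ABI2 by 5.61 ± 0.66, HAB1 by 4.44 ± 0.33 and HAB2 by 3.08 ± 0.61. HAI3 was below the level filter, at 8.9, 4.5 and 16.4 in treated shoots and 0 in the 3 water shoots. The summed PP2C level was 4558 to 5282 in treated shoots, against 313 to 360 in PS0 water, 255 to 294 in S0 water and 266 to 341 in PH0 water.

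Downstream, 7 of 11 tested kinases, ABF factors and their binding partners rose and none fell. ABF3 had 359, 277 and 300.1 in treated shoots, against 32, 28 and 17 in water (3.59 ± 0.24, limma adjusted p = 3.14e-09), and ABF2 rose by 2.53 ± 0.28. ABF1 and ABF4 stood at log2 changes of 0.03 ± 0.23 and 0.63 ± 0.28 with no call. The ABI5-binding proteins AFP1, AFP2 and AFP3, which restrain ABA signalling, rose by 5.66 ± 0.48, 2.03 ± 0.28 and 3.56 ± 0.36. MAPKKK18, the ABA-induced head of a MAP kinase cascade, had 525.8, 366.4 and 555.4 in treated shoots, against 0, 3.1 and 0.6 in water, and a ratio of recovered reads of 414 (141 to 2008). MAPKKK17 rose by 4.48 ± 0.69. The kinase gene SNRK2.2 stood at 44.6, 69.8 and 36 in treated shoots, against 56.4, 52.1 and 26.9 in water, and these values overlapped.

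**Figure D2:**
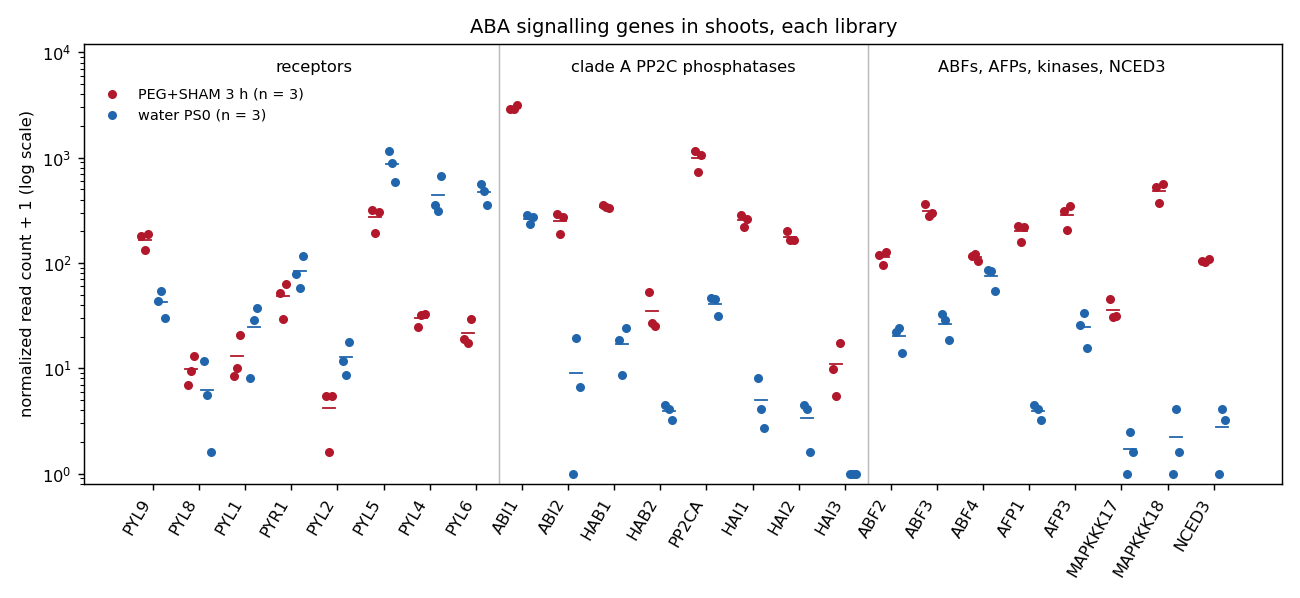
Normalized read count plus 1 (log axis) of ABA receptor, PP2C phosphatase, ABF, AFP, kinase and NCED3 genes in each library, 3 h of PEG with SHAM (left, red) beside PS0 water (right, blue); horizontal bars are group means, n = 3 each. The phosphatase points lie above their water points in every gene shown, whereas PYL4, PYL5 and PYL6 lie below theirs.

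Most tested genes for protective proteins rose, in a list that, like the others, was chosen with earlier results of these data known. Of 24 tested LEA, dehydrin and related genes, 19 rose and none fell, with a median log2 change of 2.62, and the 19 lay above all 9 water libraries. The dehydrin gene ERD10 had 6781.3, 4751.9 and 6087.4 in treated shoots, against 208, 298.5 and 214.5 in water (4.61 ± 0.26, limma adjusted p = 3.09e-10). The dehydrin gene COR47 had 11862.1, 8959 and 10455.1 in treated shoots, against 2140.2, 1996.4 and 1231.8 in water (2.57 ± 0.23). RD20, a calcium-binding caleosin, had 1180.7, 782 and 1192.6 in treated shoots, against 21.2, 19.9 and 8.4 in water (5.98 ± 0.40). The treated and water values of these 3 genes did not overlap. LTI78, a classic drought and cold reporter gene, rose by 3.43 ± 0.25, the dehydrin RAB18 (AT5G66400) by 3.81 ± 0.37, LEA7 by 6.77 ± 0.59 and RD22 by 1.65 ± 0.17. The cold-regulated chloroplast proteins COR15A and COR15B were not called: COR15A had 592.6, 143.5 and 284.8 in treated shoots, against 243.3, 173 and 73.9 in water, with overlapping values and a limma adjusted p of 0.455. KIN1 and KIN2 rose by 2.31 ± 0.46 and 1.33 ± 0.34, but their sequences are so alike that reads may be split between them.

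Of 7 tested genes for the osmolytes proline and raffinose, 4 rose and 1 fell. P5CS1, the rate-limiting enzyme of proline synthesis, had 761.9, 743.2 and 716.9 in treated shoots, against 35.3, 59.7 and 45.9 in water (3.98 ± 0.30, limma adjusted p = 1.2e-08). The gene that fell was ERD5, the proline-degrading proline dehydrogenase, with 509.4, 583.6 and 503 in treated shoots, against 1861.7, 1451.4 and 1867.1 in water (-1.69 ± 0.18). GolS2, a galactinol synthase for raffinose, had 202, 107.9 and 169.1 in treated shoots, against 0, 1.5 and 1.7 in water (6.36 ± 0.56). P5CS1, ERD5 and GolS2 each separated fully between the groups. GolS1 and the raffinose synthase AT5G40390 were called less firmly (2.60 ± 0.78 and 2.45 ± 0.70), and 2 of 7 list members were called higher without PS0-S replicate 1, PS3-S replicate 1 or PS3-S replicate 2. Among 9 tested starch degradation genes the 1 that rose was the beta-amylase BAM1 (AT3G23920), at 1657.5, 1216.2 and 1425 in treated shoots, against 74, 94.9 and 90.7 in water (4.03 ± 0.19).

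Of 24 tested transcription factors of dehydration, 15 rose and 2 fell, with a median log2 change of 2.39. RD26, an ABA-inducible NAC factor, had 1592.1, 1211.7 and 1563.6 in treated shoots, against 67, 45.9 and 47.1 in water (4.76 ± 0.26, limma adjusted p = 2.15e-10). ATAF1, another NAC factor, had 2890.2, 2332.3 and 2829.3 in treated shoots, against 151.6, 150 and 112.6 in water (4.28 ± 0.24). NAC032, NAC102 and NAC055 rose by 5.05 ± 0.32, 3.51 ± 0.24 and 3.5 ± 0.29. The homeodomain factors HB-7 and HB-12, both ABA-inducible, rose by 4.31 ± 0.29 and 6.25 ± 0.72. The zinc finger repressors went different ways: AZF2 rose by 2.88 ± 0.39, whereas AZF3 had 35.6, 37.5 and 45.8 in treated shoots, against 282.1, 483.8 and 216.8 in water (-2.94 ± 0.37), a call lost against PH0 water when its shallowest library was left out. DREB2A, a dehydration-responsive element binding factor, had 4.5, 6.5 and 10.9 in treated shoots, against 0, 0 and 1.1 in water (2.62 ± 0.60, called). The touch- and cold-sensitive CBF2, ZAT10 and ZAT12 varied widely among the water libraries, ZAT10 having 464.9, 654 and 942.7 in treated shoots, against 116.4, 578.7 and 667.7 in water, and were not called.

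Most of the tested aquaporins, the water channels of the plasma membrane (PIP) and the vacuole (TIP), rose in shoots. Of 18 tested, 11 rose and 2 fell, and their summed level was 38150 to 41394 in treated shoots, against 12189 to 13610 in PS0 water, 15598 to 18328 in S0 water and 23536 to 24815 in PH0 water. Against S0 water 10 rose and 4 fell, and the same counts held against PH0 water. Of all 10459 genes tested, 953 rose and 2017 fell against S0 water, and 1454 rose and 1373 fell against PH0 water. PIP2A had 3880.8, 3997.1 and 4330.7 in treated shoots, against 412.5, 257.2 and 331.1 in water (3.63 ± 0.18, limma adjusted p = 6.32e-11). TIP1-1 had 5578.3, 5561.6 and 5119.5 in treated shoots, against 595.9, 659.9 and 972.5 in water (2.90 ± 0.23). RD28, a PIP2 channel first found as a dehydration-responsive gene, had 2058.5, 1491.5 and 1612.7 in treated shoots, against 45.8, 55.1 and 33.6 in water (5.25 ± 0.27). PIP2B, the close homologue of RD28 with which it may share reads, rose by 3.59 ± 0.19. The fallers against PS0 water were PIP1-5 (-1.13 ± 0.19) and TIP2-1, which had 1315.9, 1430.2 and 1290.8 in treated shoots, against 2873.6, 2481.7 and 2042.4 in water (-0.86 ± 0.16). TIP1-2, with a log2 change of -0.37 ± 0.25, was not called.

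In roots of the same seedlings the aquaporins behaved differently. A model over both tissues, 36 libraries and 9191 genes, tested the shoot change minus the root change at 3 h, and 352 genes (3.83%) passed, with 151 (1.64%) more positive in shoots and 201 (2.19%) more negative. Of the 18 aquaporins, 9 were more positive in shoots and none more negative. The median log2 change of the list was 1.95 in shoots and -0.65 in roots, and the summed level in roots was 16954 to 19557 at 3 h, against 22945 to 26190 in water. RD28 had 303.7, 459.7 and 389.2 in roots at 3 h, against 273.3, 295.7 and 444 in water roots, and its shoot change exceeded its root change by 5.05 ± 0.40 (limma adjusted p = 2.19e-10). TIP2-2 stood at 5003.6, 3757.9 and 4246.6 in treated shoots, against 335, 430.2 and 322.7 in water shoots. In roots TIP2-2 went the other way, with 1004.7, 1366.1 and 1285.6 at 3 h, against 2601.3, 2788.7 and 4421.5 in water, so that the changes differed by 4.97 ± 0.39. For PIP2A and PIP2B the differences were 3.57 ± 0.28 and 4.33 ± 0.28. PIP1-4 rose in both tissues, by 3.01 ± 0.20 in shoots and 1.63 in roots, where 6.56% of all genes were called at 3 h.

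**Figure D3:**
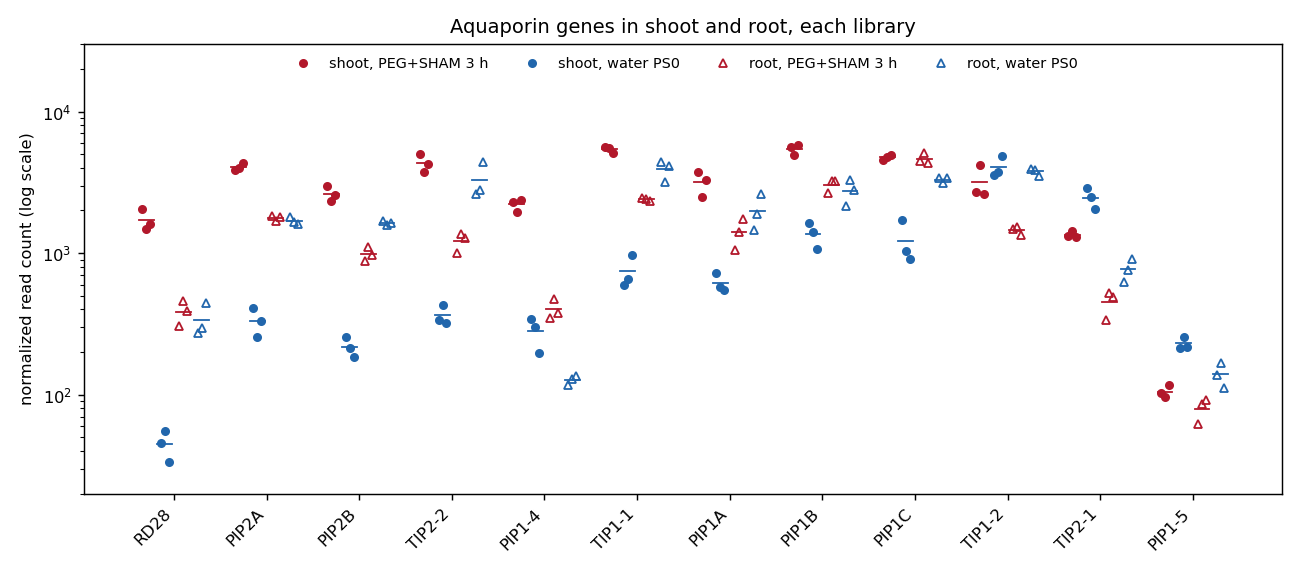
Normalized read count (log axis) of 12 aquaporin genes in each library of shoots at 3 h, shoots in PS0 water, roots at 3 h and roots in PS0 water; bars are group means, n = 3 each. In RD28, PIP2A, PIP2B and TIP1-1 the 3 h shoot points lie above both root groups, and the water shoot points below them.

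Part of the other protective and detoxifying genes rose as well. Of 8 tested cuticular wax and cutin genes 5 rose, among them KCS2, a fatty acid elongase (29.7, 16.2 and 26.2 in treated shoots, against 0, 0 and 1.1 in water, 4.25 ± 0.61), and CER3, of alkane synthesis (1.58 ± 0.22). That count was 3 without PS0-S replicate 1, PS3-S replicate 2 or PS3-S replicate 3, and 2 without PS0-S replicate 2. Of 10 tested glucosyltransferase and OPR genes 6 rose. UGT75B1 had 822.8, 969.4 and 872.9 in treated shoots, against 31.7, 38.3 and 28.6 in water (4.72 ± 0.27, limma adjusted p = 4.01e-10), and UGT74F2, which glucosylates salicylic acid, rose by 2.52 ± 0.21. UGT75B1 is known to glucosylate small acids such as p-aminobenzoate. Of 11 glutathione transferases 4 rose, with GSTU7 at 2.58 ± 0.35 and GSTF8 at 1.34 ± 0.26. Of 12 heat shock factors and chaperones 5 rose, among them the factor HSFC1 (504, 395 and 417 in treated shoots, against 18, 34 and 26 in water, 4.07 ± 0.79) and HSP70 (2.36 ± 0.32), while the small heat shock gene HSP18.2 stood at -0.78 ± 0.59 with no call. Of 17 antioxidant enzyme genes 1, VTC2, rose and none fell, and the sign of its change turned against S0 and against PH0 water.

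For the enzymes that SHAM inhibits, neither AOX1A nor any tested lipoxygenase gene was called. The alternative oxidase gene AOX1A had 84.7, 98.9 and 89.5 in treated shoots, against 38.8, 49 and 46.5 in water. These values did not overlap, but the log2 change of 1.01 ± 0.41 had a limma adjusted p of 0.11. The external NADH dehydrogenase NDB2 rose by 2.78 ± 0.75 and was the 1 of 7 alternative respiration genes called, a call lost without PS0-S replicate 1 or any of the 3 treated replicates. Counts of this list were higher elsewhere, with 3 members called by edgeR and by DESeq2, 4 against S0 water and 5 against PH0 water. On the 6 compared libraries alone 2 were called, and 3 without shoot 2 h replicate 2 and PH0 replicate 1. Whether AOX1A was among them is not reported here, and its missing call does not show that it was unchanged. Over all genes, 971 rose by edgeR, 791 by DESeq2, 953 against S0 water and 1454 against PH0 water, beside the 697 given above. On the compared libraries alone 710 rose, and 1112 without shoot 2 h replicate 2 and PH0 replicate 1. LOX2, the chloroplast enzyme of jasmonate synthesis, had 123.3, 141.5 and 110.2 in treated shoots, against 123.4, 116.4 and 208.4 in water, and LOX1, LOX3, LOX4 and LOX6 had log2 changes between -0.28 and 0.12. Later steps of jasmonate synthesis did rise, giving 6 of 14 in the list: AOS by 1.01 ± 0.20, AOC3 by 2.09 ± 0.40 and JAR1, which makes the active isoleucine conjugate, by 3.31 ± 0.59. The AOS call was lost against PH0 water. The jasmonate reporter genes VSP1 and VSP2 stood at 0.36 and 0.18 with no call, and of 11 response genes 2 rose and 1 fell, with none higher without PS3-S replicate 1 or replicate 3.

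Part of the nuclear photosynthesis genes fell. Of 22 tested light-harvesting genes 13 fell and none rose (median log2 change -0.79), of 30 photosystem and electron transport genes 12 fell and none rose (-0.70), and of 20 Rubisco and Calvin cycle genes 7 fell and none rose (-0.57). The LHCB2 genes, encoding antenna proteins of photosystem II, fell most among the antenna: LHCB2.3 had 175.3, 117.6 and 132 in treated shoots, against 941.4, 785.4 and 475.6 in water (-2.33 ± 0.25, limma adjusted p = 1.28e-06). LHCB2.1 and LHCB2.2, whose near-identical sequences may share reads, fell by 1.8 ± 0.25 and 1.78 ± 0.22 on the log2 scale, while against PH0 water both stood higher, by 0.97 and 0.24. PSBO2, of the oxygen-evolving complex, had 2420.8, 2125.5 and 2151.7 in treated shoots, against 4929.2, 4173.5 and 4228.8 in water (-0.99 ± 0.17). PSAD1, of photosystem I, fell by 0.97 ± 0.18. RCA, the activase of Rubisco, had 828.7, 794.2 and 835.8 in treated shoots, against 1780.6, 1425.4 and 1822.8 in water (-1.02 ± 0.15). RBCS1A, a Rubisco small subunit gene, had 31335.8, 32602.6 and 27323.8 in treated shoots, against 20379.8, 27622.2 and 48308.8 in water, with no separation. Members without a call also included some with a positive log2 change, such as LHCB7 at 1.12 ± 0.37 and FD2 at 1.47 ± 0.72. Chlorophyll synthesis genes were called in 2 of 12 cases, both lower, beside 14.0% of all genes called and 7.37% called lower.

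These counts rested on single libraries more than those of the ABA genes did. The antenna count of 13 became 5 without PS3-S replicate 2, 6 without PS0-S replicate 1, 7 without PS0-S replicate 2, 8 without PS3-S replicate 3 and 17 without PS0-S replicate 3, the water library that stood apart. The photosystem count of 12 became 7 without PS0-S replicate 1 and 16 without PS0-S replicate 3, and the Calvin cycle count of 7 became 4, 2 and 1 without PS3-S replicates 1, 2 and 3 and 2 without PS0-S replicate 2. After TMM rescaling 3 Calvin cycle genes were called. A fit on the 6 compared libraries alone called 5, 6 and 2 genes in the 3 lists. Against S0 water 17 antenna, 28 photosystem and 15 Calvin cycle genes fell, and against PH0 water 10, 24 and 17 did. More genes were called in general there: of 10459 tested, 2017 fell against S0 and 1373 against PH0 water, beside 771 against PS0 water. Antenna genes called higher numbered 1 against S0 water and 2 against PH0 water, and without PS0-S replicate 3 there were 1 antenna, 1 photosystem and 2 Calvin cycle genes called higher. Against the other water shoots the medians kept their sign: -1.05 in S0 and -0.60 in PH0 water for the antenna, -1.23 and -1.17 for the photosystem genes, and -1.26 and -1.59 for the Calvin cycle. Single antenna genes did not. LHCB1.1 averaged 10370 ± 2545 at 3 h, 21875 ± 9874 in PS0 water, 4008 ± 1165 in S0 water and 380 ± 76.3 in PH0 water (SD, n = 3 each), so it was lower at 3 h than in PS0 water (limma adjusted p = 0.0396) and higher than in S0 (1.39 ± 0.31) and PH0 water (4.75 ± 0.31). Reads of the LHCB1 genes may be split among near-identical copies.

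**Figure D4:**
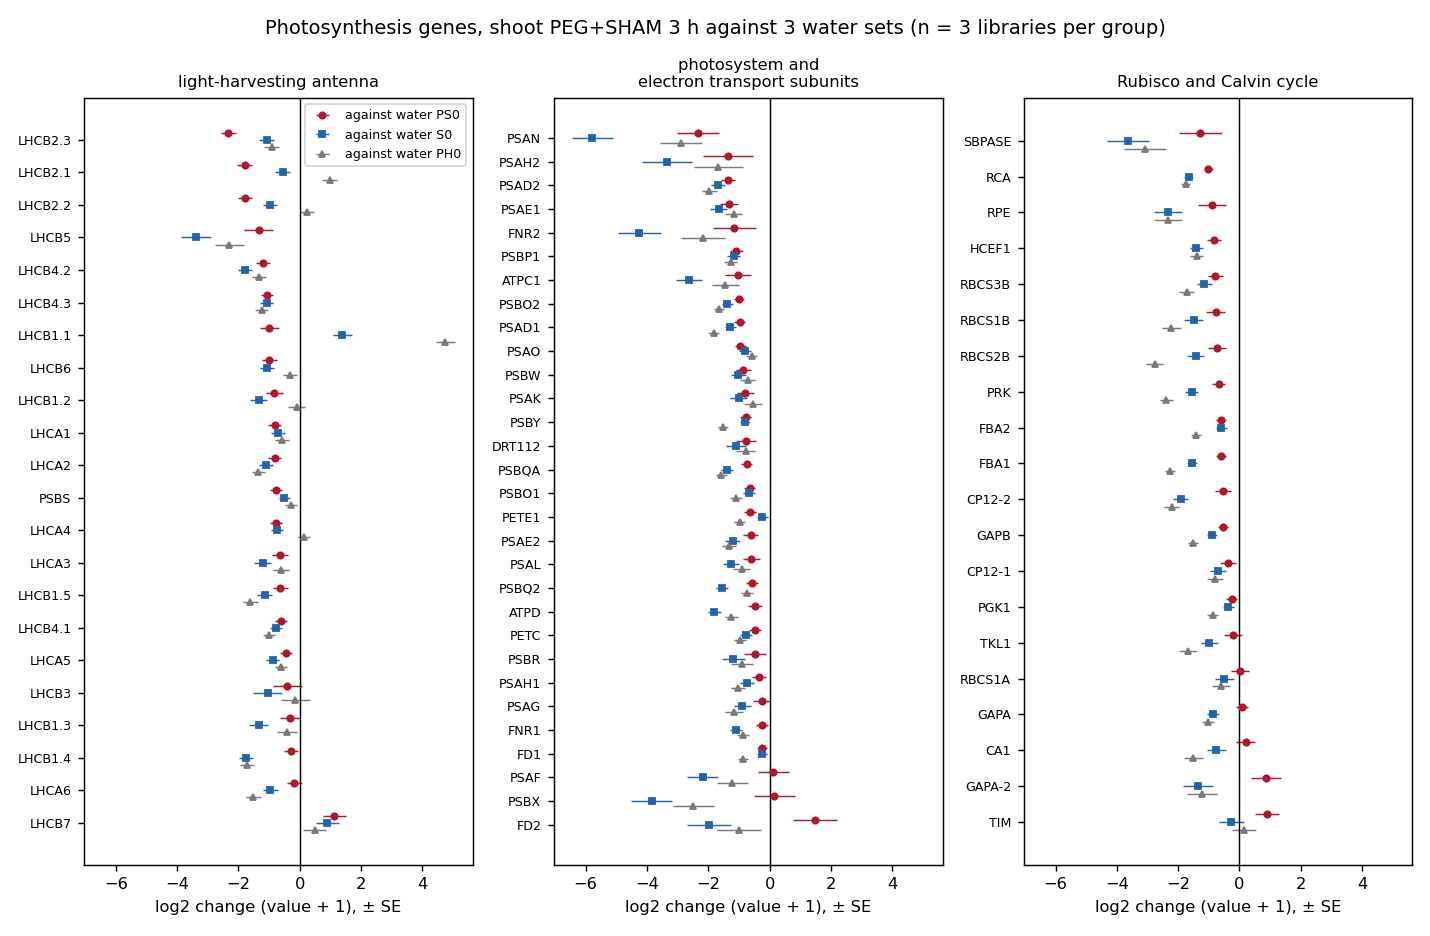
Log2 change of each tested light-harvesting, photosystem and Calvin cycle gene in shoots at 3 h of PEG with SHAM relative to water shoots of the sets PS0, S0 and PH0 (points, with SE of the fit over all 18 shoot libraries, n = 3 libraries per group). Medians lie below 0 in all 3 lists and water sets, and LHCB1.1 lies above 0 against S0 and PH0 water.

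Genes of growth fell in part. Of 23 tested expansins and xyloglucan enzymes 8 fell and 2 rose (median -0.93), a count of fallers that was 5 without PS0-S replicate 1, PS0-S replicate 2 or PS3-S replicate 2. EXO, a brassinosteroid-induced growth gene, had 31.2, 47.8 and 88.4 in treated shoots, against 409, 493 and 486.8 in water (-3.15 ± 0.34, limma adjusted p = 1.94e-06), and XTH24 fell by 2.18 ± 0.33 on the log2 scale. EXPA10 stood against this trend, with 1434.7, 1431.4 and 1430.5 in treated shoots and 63.5, 62.8 and 57.7 in water (4.52 ± 0.27). Of 16 tested replication histone and cell cycle genes 5 fell, all of them histone genes, and 3 did without PS0-S replicate 1, PS0-S replicate 2 or PS3-S replicate 2. Against S0 water 9 fell, and against PH0 water 1 fell and 2 rose, with none higher once its shallowest library was left out. AT5G10390, a histone H3 gene, had 38.6, 28.4 and 46.9 in treated shoots, against 268, 232.7 and 108.7 in water (-2.32 ± 0.30), with reads that may be shared among H3 copies. Of 10 nucleolar ribosome biogenesis genes 4 fell, a count that was 1 without PS0-S replicate 2 or PS3-S replicate 3 and 2 without PS0-S replicate 3 or PS3-S replicate 2. Against S0 water none of these 10 fell and 2 rose, and against PH0 water none fell and 5 rose. Over all genes tested, 953 rose against S0 water and 1454 against PH0 water.

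Of 15 tested nitrate genes 5 fell and none rose against PS0 water. Against S0 water 4 fell and 3 rose, and against PH0 water 5 fell and 5 rose. Of all 10459 genes tested, 2017 fell and 953 rose against S0 water, and 1373 fell and 1454 rose against PH0 water. The nitrate transporter and sensor NRT1.1 had 147, 158.3 and 141.8 in treated shoots, against 800.4, 820.6 and 1142.2 in water (-2.60 ± 0.19, limma adjusted p = 7.08e-09), and the nitrate-induced repressors LBD37, LBD38 and LBD39 fell by 0.90 ± 0.22, 0.86 ± 0.17 and 1.35 ± 0.24 on the log2 scale, LBD38 without a call against PH0 water. The nitrate reductase genes NIA1 and NIA2 stood at -0.67 ± 0.35 and 0.34 ± 0.28 with no call. Of 6 ROXY-type glutaredoxin genes 3 fell, AT4G15700 having 10.4, 11 and 10.9 in treated shoots, against 130.5, 124 and 73.4 in PS0 water (-3.18 ± 0.76), but 1 of the 6 fell against S0 water and none against PH0 water. Of 15 aliphatic glucosinolate genes 4 fell, a count that was 2 without PS0-S replicate 1, PS0-S replicate 2 or PS3-S replicate 2 and 1 without PS3-S replicate 1, without PS3-S replicate 3 or after TMM rescaling. MYB28, the main activator of that pathway, had 1.5, 7.1 and 7.6 in treated shoots, against 38.8, 42.9 and 52.7 in water (-3.02 ± 0.47).

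The most negative change among called genes that averaged at least 20 in water was that of IPT3, a cytokinin synthesis gene, with 0, 1.3 and 0 in treated shoots, against 67, 62.8 and 37.5 in water (-5.38 ± 0.43, limma adjusted p = 2.9e-08). FLA9, a fasciclin-like arabinogalactan protein of the cell surface, had 32.7, 14.2 and 20.7 in treated shoots, against 303.2, 330.7 and 494.6 in water (-4.05 ± 0.24). AT5G48430 had 3, 3.2 and 3.3 in treated shoots, against 52.9, 93.4 and 158 in water (-4.48 ± 0.47). Each of these was lower in every treated library than in any PS0 water library, which was a condition for naming them among the largest falls. Beside the 14.0% of all genes called, the circadian clock list had 2 of 16 called, both lower, and the salicylate and defence list 0 of 4. Chlorophyll breakdown had 1 of 5, higher, and the phenylpropanoid list 1 higher and 2 lower of 14. Among 10 reference genes UBQ10 rose by 0.70 ± 0.21 and UBC9 fell by 2.95 ± 0.88 on the log2 scale, UBC9 with 4.5, 2.6 and 0 in treated shoots, against 59.9, 26 and 4.5 in water. Both calls were lost on the 6 compared libraries alone and against PH0 water less its shallowest library. The UBQ10 call was also lost when any 1 treated replicate, PS0-S replicate 1 or PS0-S replicate 3 was left out. The UBC9 call was also lost without PS3-S replicate 2 or 3, without PS0-S replicate 1 or 2, and against PH0 water.

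Comparing 3 h with 1 h of the same treatment shows which levels still differed after the first hour, and uses no water level. The water libraries did enter the estimate of spread, and a fit on the compared libraries alone called 1337 genes. A gene without a call here may have changed before 1 h or not at all. Between these time points 653 genes (6.24%) passed, 312 of them higher at 3 h (2.98%) and 341 lower (3.26%), with totals of 390 to 467 when any library of either group was left out. Against PS0 water, 0.87% of all genes were called at 1 h (0.65% higher) and 9.42% at 2 h (4.36% higher and 5.06% lower). Of the 7 PP2C genes 2 rose by 1 h and 7 by 2 h, of the 18 aquaporins 1 rose by 1 h and 11 by 2 h, of the 24 protective protein genes 1 rose by 1 h and 14 by 2 h, and of the light-harvesting genes none fell at 1 h and 10 at 2 h. All 7 PP2C genes, 19 of 24 protective protein genes, 11 of 18 aquaporins, and 7 of 11 kinase and ABF genes were also higher at 3 h than at 1 h. ABI1 averaged 263 ± 26.7 in PS0 water, 1122 ± 298 at 1 h, 2257 ± 201 at 2 h and 2986 ± 139 at 3 h (SD, n = 3 each). RD20 averaged 16.5 ± 7.04 in PS0 water, 22 ± 3.52 at 1 h, 419 ± 95.6 at 2 h and 1052 ± 234 at 3 h, so most of its change came after the first hour (3 h against 1 h: 5.50 ± 0.40, limma adjusted p = 4.26e-08). AT3G03341 followed the same order with 8.1 ± 3.2, 20.7 ± 6.71, 308 ± 52.6 and 1296 ± 244. NCED3, in contrast, stood at 1.77 ± 1.59 in PS0 water, 34.6 ± 12.4 at 1 h, 100.4 ± 20.1 at 2 h and 104 ± 3.9 at 3 h, its last values lying within their spread.

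A subset of the receptor genes fell early, with 3 of 8 tested called lower at 1 h and none higher. PYL6 averaged 466 ± 106 in PS0 water, 67.8 ± 20 at 1 h, 25.7 ± 10.4 at 2 h and 20.8 ± 6.63 at 3 h, and it already passed at 1 h (-2.77 ± 0.29, limma adjusted p = 1.09e-05), when 0.87% of all genes did. PYL4 averaged 444 ± 193 in PS0 water, 191 ± 35.8 at 1 h, 53.2 ± 7.27 at 2 h and 28.8 ± 4.34 at 3 h. IPT3 went later, averaging 55.8 ± 16 in PS0 water, 39.8 ± 4.34 at 1 h, 6.3 ± 1.59 at 2 h and 0.433 ± 0.751 at 3 h (3 h against 1 h: -4.94 ± 0.43). Of the light-harvesting genes 6 of 22 were lower at 3 h than at 1 h, and of the nitrate genes 5 of 15. PP2-B13, a phloem protein gene, had 0, 1.9 and 3.3 at 3 h, against 34.6, 25.3 and 24.9 at 1 h, while PS0 water shoots had 3.5, 6.1 and 15.7, so its value at 1 h lay above both.

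**Figure D5:**
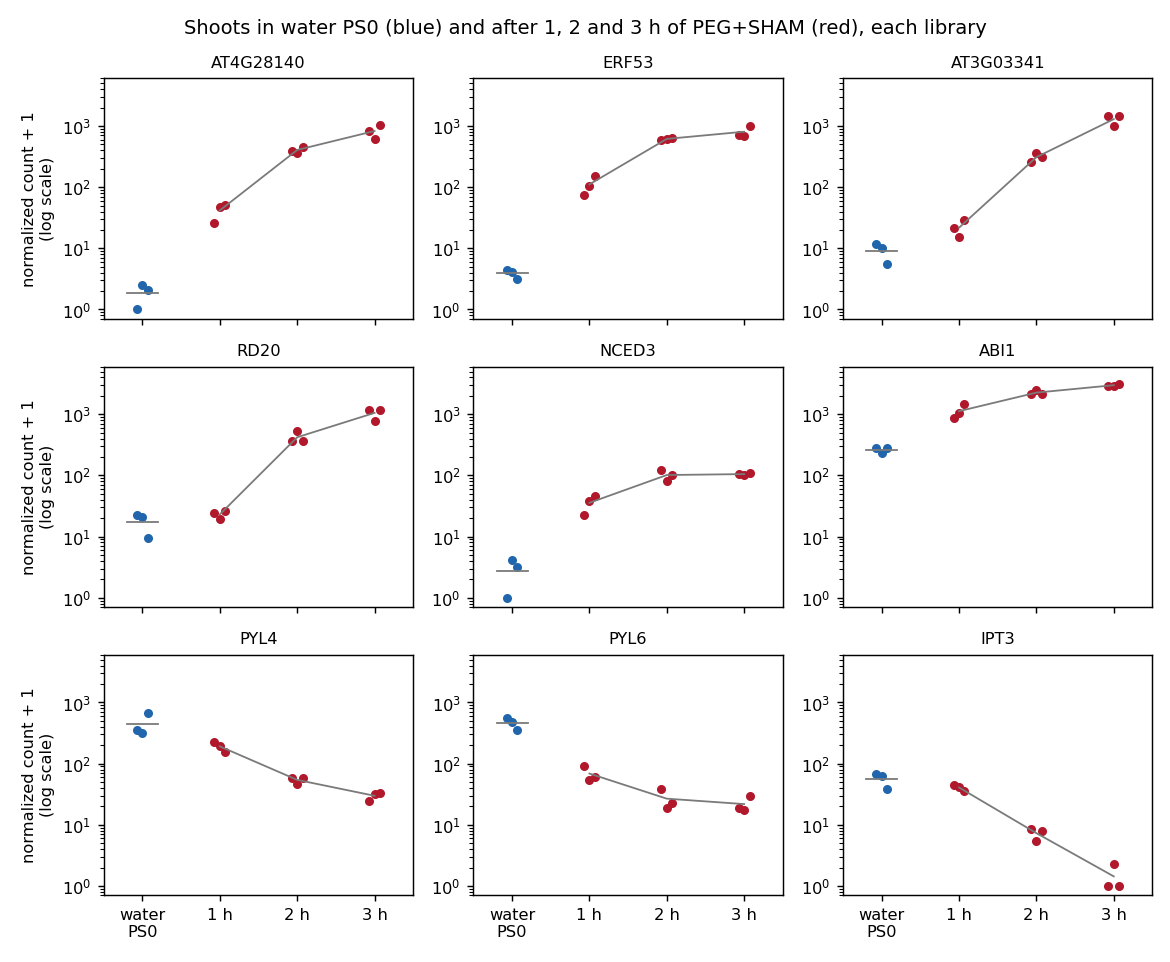
Normalized read count plus 1 (log axis) of 9 genes in shoots in PS0 water and at 1, 2 and 3 h of PEG with SHAM; points are libraries and lines join group means, n = 3 each. ERF53, AT4G28140 and NCED3 already stand above water at 1 h, RD20 and AT3G03341 climb from 2 h, and PYL6, PYL4 and IPT3 decline.

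Set against the roots, 4 of 7 tested PP2C genes changed more in shoots, beside 1.64% of all genes with a more positive change there. ABI1 had 1336.9, 1283.1 and 998 in roots at 3 h, against 330, 294.8 and 329.1 in water roots, and its shoot change was larger by 1.59 ± 0.30 (limma adjusted p = 0.00109). The differences were 4.54 ± 0.79 for ABI2, 2.53 ± 0.56 for HAB1 and 1.74 ± 0.42 for PP2CA, whereas for HAI1 the difference was 0.17 ± 0.78 with a limma adjusted p of 0.952. Of 21 protective protein genes tested in both tissues, 4 had a more positive change in shoots and none a more negative one. The dehydrin ERD10 changed more in shoots by 2.79, COR47 by 2.41 and ERD14 by 2.19. AT4G28140, ERF53 and RD20, so high in treated shoots, stood at 2.8, 2.6 and 4.8, at 1.4, 7.1 and 5.8, and at 0.9, 1.9 and 0 in the 3 h roots. MAPKKK18 reached 431, 430.5 and 402.6 in the 3 h roots, close to its shoot values.

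Other genes had a more negative change in shoots than in roots. PYL6 had 208.5, 219.1 and 244.5 in roots at 3 h, against 616.4, 582.5 and 844.6 in water roots, a smaller fall than in shoots (difference -2.85 ± 0.45, limma adjusted p = 0.000122). The difference for PYL4 was -2.49 ± 0.52 and for IPT3, which had 11.2, 16.2 and 10.5 in 3 h roots, against 50.6, 53.1 and 77.6 in water roots, -3.21 ± 0.49. FLA9 stood at 603.1, 658.1 and 571.4 in 3 h roots, against 905.9, 773.8 and 670.7 in water roots, with a difference of -3.70 ± 0.31. LHCB2.3 went opposite ways: the low root level was 196.4, 302.1 and 208 at 3 h, against 80, 46.9 and 37.3 in water, a difference of -4.46 ± 0.42 (limma adjusted p = 1.2e-08). Of 19 expansin and xyloglucan enzyme genes tested in both tissues 4 had a more negative change in shoots, and of 14 nitrate genes 3. Over all genes tested in both tissues the share was 2.19%.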

How the data were processed

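MARS-seq of total RNA was done on shoots and roots, separated after the treatment. Per the submitters' processing notes, the tools were STAR 2.4.2a, HTSeq, cutadapt, bcl2fastq and DESeq2, and none of the labels or headers used here names the genome build. The deposited signal per gene is, from its values, a read count divided by 1 size factor per library. In all 36 libraries at least 99.992% of values came out as whole reads (tolerance 0.05), but for 6 of them the unit of 1 read did not pass a separate check. The recovered reads of the other 30 served as alternatives, on which edgeR called 1846 genes. Here log2(value + 1) was tested with limma 3.58.1 (R 4.3.3, trend) over the 18 shoot libraries, for genes at 5 or more in at least 3 libraries. The interaction with tissue used all 36. An adjusted p under 0.05 is a call. Changes are log2 differences and understate those of low genes. Software also included edgeR 4.0.16, DESeq2 1.42.0, Python 3.11.15, pandas 2.3.3 and SciPy 1.17.1. The fits were tested on simulated data. Alternatives changed scaling, pseudocount, filter, samples, depth, block, tool and water set. Names came from RefSeq for 16183 of 16283 identifiers. No sequences are printed. The members and gene lists were chosen with earlier results of these data known. Genes named are list members and, against PS0 water, those among the 12 largest changes in each direction of called genes that averaged at least 20 in the group where they were higher and did not overlap between groups. For the other comparisons they are those among the 5 largest in each direction, without the overlap condition for shoot minus root. Organelle and unannotated genes were passed over. Intervals cover counting error only.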

Additional observations from a re-analysis of the deposited data

Results flagged for a closer look

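The changes of 352 genes at 3 h differed between shoots and roots in the model over both tissues (limma interaction, Benjamini-Hochberg adjusted p under 0.05). Log2 differences are the shoot change minus the root change. Those most positive in shoots were AT2G28400 (6.63, a DUF584 protein with 433.7, 336 and 500.8 in 3 h shoots, against 0, 7.7 and 17.9 in water shoots), AT4G16000 (5.66), RD28 (5.05), TIP2-2 (4.97) and AT4G06536 (4.69). Both aquaporins are described above.

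The most negative was AT1G75960 (-5.98), annotated as an AMP-dependent synthetase and ligase. It had 26.7, 14.2 and 10.9 in 3 h shoots, against 88.1, 93.4 and 122.7 in water shoots, and 49, 39.6 and 45.1 in 3 h roots, against 2, 5.3 and 3.1 in water roots. AT2G34510 (-4.55), a DUF642 protein, also changed in opposite directions, with 37.1, 39.4 and 29.5 in 3 h shoots, against 165.7, 104.1 and 124.9 in water shoots, and 13.1, 15.6 and 9.6 in 3 h roots, against 1, 3.5 and 0 in water roots. LHCB2.3 (-4.46) is described above. AT4G15700 (-4.04) and AT4G25780 (-4.04) were near 0 in roots throughout, and the difference for AT4G15700 lost its call without PS0-S replicate 1 or 2, without PS3-R replicate 3, with a pseudocount of 0.5 or in the replicate block of shoot and root pools. AT4G25780 lost its call without PS3-S replicate 2, without PS0-R replicate 1 or with edgeR. For AT4G06536 DESeq2 gave no adjusted p.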

How the results depend on the processing

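The 3 h against PS0 total of 1468 was 2970, 2827, 3037 and 2613 against S0, PH0, both of these or all 3 water sets, and, in fits chosen after seeing the data, 2363 without shoot 2 h replicate 2 and PH0 replicate 1 and 2565 against PH0 water less its shallowest library. It was 931 to 1935 without 1 replicate. The 3 h against 1 h total of 653 was 1337 on the compared libraries alone, 1190 with edgeR, 1010 with DESeq2 and 390 to 467 without 1 replicate. The shoot minus root total of 352 was 607 with a depth term, 196 in a replicate block of shoot and root pools (added after seeing the data) and 260 to 465 without 1 replicate. With a replicate block the totals were 1404, 607 and 367. Same-numbered shoot replicates correlated at -0.222 to 0.494 over 45 pairs (mean 0.001, 7 over 0.1), and same-numbered shoot and root libraries of a group at -0.411 to 0.25 over 18 pairs (mean -0.035, 4 over 0.1). These correlations cannot show whether libraries with the same number came from a shared pool, and the labels leave that unsaid. The main fits treat all libraries as unpaired. Of 3572 values for 158 gene results, 3205 kept direction and call, 331 lost the call or had no adjusted p, and 36 turned sign. Of 138 genes of the comparison with PS0, 78 never changed. These gene results were picked as the strongest of the main fits. They are the largest changes and, per list and direction, up to 4 called members with the largest absolute t. The tally therefore does not describe called genes in general. The sign turned against S0 water for AT4G15670 (0.65), VTC2 (-0.43), GSTF2 (-0.63), FIB2 (0.0143), CBF5 (0.50), TPS8 (-0.25) and EXL2 (0.19). Against PH0 water it turned for AT4G15690 (0.80), AT4G15700 (0.59), VTC2 (-1.35), PORB (0.10), LHCB2.2 (0.24), LHCB2.1 (0.97), GLN1.1 (0.56), FIB2 (0.33), NOP56 (0.43), CBF5 (0.88) and AT5G65360 (0.35). Against S0 and PH0 water together it turned for AT4G15670 (0.10), VTC2 (-0.89), LHCB2.1 (0.21), GLN1.1 (0.0416), FIB2 (0.17), NOP56 (0.18) and CBF5 (0.69), and against all 3 water sets for VTC2 (-0.36) and CBF5 (0.16). In PH0 replicate 1, where 1 read was worth 11.1 normalized counts, AT4G15690 and AT4G15700 were at 0. Without that library they did not turn, and the sign turned against PH0 water for AT4G15670 (0.38), VTC2 (-1.42), LHCB2.2 (0.11), LHCB2.1 (0.75), GLN1.1 (0.57), FIB2 (0.45), NOP56 (0.30), CBF5 (0.68) and AT5G65360 (0.095). For the other turns the cause was not tested. Depth limited genes near 0 in water: 1 read was worth 3.53 normalized counts in PS0-S replicate 1, the shallowest of the 6 compared libraries.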
